A study of Homo sapiens with 3 samples.

Results

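Levels of 5 genes of lipoprotein uptake and intracellular cholesterol transport, MYLIP, SCARB1, NPC1, NPC2 and STARD4, were compared between 2 RNA libraries of melanoma cells. The genes were picked by symbol, out of 20344 genes in the files, with values from these same libraries already known. Their differences between the libraries are therefore descriptions and carry no test. The libraries were made from messenger RNA and have the titles "A375, Prop" and, for the other, "A375-VR, Prop". Each group has 1 library, so that no replicate error can be given. The series has 1 more sample, A375-VR, DMSO, which was not analysed here. A375 is an established human melanoma line with a mutant BRAF kinase. The labels do not spell out VR or Prop, and the series title is about propranolol, a beta-adrenergic blocker, and resistance to the BRAF inhibitor vemurafenib. The derivation of the A375-VR cells is not given in the sources used here. Labels are at odds over the first library: its title and cell line label name A375, while the extraction protocol for all samples names A375-VR cells kept for 24 h with DMSO or with 20 µM propranolol. Cell line, treatment, culture and library preparation thus cannot be told apart as sources of a difference. The libraries are called below, after their titles, A375 Prop and A375-VR Prop. STARD4, a cytosolic sterol carrier, was 9.44-fold higher in A375-VR Prop. NPC1, SCARB1 and NPC2 were higher there by folds of 1.73 to 2.14, and MYLIP was lower, at a fold of 0.468.

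Values are FPKM, which count reads or fragments per kilobase of a gene and are divided by the total of its library. The recovered totals were 17811339 in A375 Prop and 16438482 in A375-VR Prop, and the 10761 genes with at least 1 FPKM in either library had medians of 605 and 621 recovered reads. Of the 9 melanocyte lineage markers examined, 4 passed that filter. The lineage transcription factor SOX10 had 65.3 FPKM in A375 Prop and 150 in A375-VR Prop. ERBB3 and S100B were also higher there, with folds of 3.58 and 3.39. MITF, the master regulator of melanocytes, was lower, at 6.47 against 3.47 FPKM and a fold of 0.537 with a 95% counting interval of 0.476 to 0.605. The pigment genes PMEL, DCT and MLANA stayed below 1 FPKM in both, and TYR was listed at 0 in both, so the pigment markers of a melanocyte were nearly absent. The summed level of the 9 markers was 86.2 FPKM in A375 Prop and 202 in A375-VR Prop, most of it SOX10, so that the sum does not show MITF going the other way. The part of these markers in the results below was not tested. Of 8 markers of keratinocytes, fibroblasts, endothelium and leukocytes, only the keratin KRT14 passed the filter, and the leukocyte genes PTPRC and CD68 were listed at 0. The 8 summed to 3.40 and 3.88 FPKM.

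Cells take up cholesterol in lipoproteins through surface receptors and carry it to late endosomes and lysosomes, where cholesteryl esters are cleaved. The soluble protein NPC2 hands the free sterol to the membrane protein NPC1, which passes it out of the lysosome, and loss of either causes Niemann-Pick disease type C. Carriers such as STARD4 then move sterol through the cytosol between membranes. When sterol in the endoplasmic reticulum is low, SREBP transcription factors raise genes of synthesis and uptake. When oxysterols accumulate, the nuclear receptors LXR raise genes of export and MYLIP, a ubiquitin ligase that sends lipoprotein receptors to degradation. SCARB1 is a surface receptor for HDL from which cells take cholesteryl ester without engulfing the particle.

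The DNA before the start sites of STARD4, MYLIP and NPC1 is shown because STARD4 and MYLIP lay at the opposite ends of the 5 genes and NPC1 had the second largest fold. The sequences are from RefSeq promoter windows of 300 bases on GRCh38, of 250 bases before the start and 50 after it, and each window was found once, by exact match, on its chromosome in GRCh37. Printed is the part before the start and outside the GENCODE gene: 195 bases for STARD4 and 250 bases for MYLIP and for NPC1. Capitals mark matches, on either strand, to CCAAT, the box bound by NF-Y, or to GGGCGG, the box bound by Sp1; overlapping matches to the same box are counted each. The positions on GRCh37 are chr5:110848289-110848483 on the minus strand for STARD4, chr6:16129067-16129316 on the plus strand for MYLIP and chr18:21166471-21166720 on the minus strand for NPC1.
STARD4: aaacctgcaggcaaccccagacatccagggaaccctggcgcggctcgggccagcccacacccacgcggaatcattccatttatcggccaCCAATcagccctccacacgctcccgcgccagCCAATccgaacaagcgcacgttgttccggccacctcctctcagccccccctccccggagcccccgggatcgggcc
MYLIP: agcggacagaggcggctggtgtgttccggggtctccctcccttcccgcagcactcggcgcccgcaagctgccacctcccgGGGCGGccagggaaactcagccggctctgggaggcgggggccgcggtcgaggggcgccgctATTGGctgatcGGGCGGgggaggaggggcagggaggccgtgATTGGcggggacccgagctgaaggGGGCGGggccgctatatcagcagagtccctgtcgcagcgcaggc
NPC1: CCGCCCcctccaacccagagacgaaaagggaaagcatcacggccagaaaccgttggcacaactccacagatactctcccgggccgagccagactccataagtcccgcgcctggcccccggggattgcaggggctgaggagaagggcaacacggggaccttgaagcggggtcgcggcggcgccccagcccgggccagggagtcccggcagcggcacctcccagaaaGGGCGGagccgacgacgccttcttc

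In these letters STARD4 had CCAAT at 2 places, starting 161 and 130 bases before the RefSeq start, both on the gene's own strand. A GGGCGG of STARD4 lay 52 bases before the start, in the stretch not printed. MYLIP had CCAAT at 2 places on the opposite strand and GGGCGG at 3, and NPC1 had GGGCGG at 2 places and no CCAAT. Of 35116 promoter windows of this length in the table, 34.6% held CCAAT and 10.8% held it at least 2 times. For GGGCGG these shares were 45.0% and 26.7%. The members' windows were 69% to 73.7% G and C, against a median of 58.7% over all windows. The table has a pair of overlapping windows for NPC2: the upstream window held CCAAT at 2 places and GGGCGG at 7, and the other held GGGCGG at 9 and no CCAAT. SCARB1 has no entry in it. No member's window matched TCACNCCAC, a core of the sterol regulatory element found in 1.13% of all windows. None matched the E-box CACGTG, found in 7.26%, or the LXR direct repeat of AGGTCA with a spacer of 4 bases, found in 0.0199%. Motif letters with these names occur in many promoters, and a match or its absence describes these windows alone.

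STARD4 (Entrez 134429) had the largest fold of the 5 genes. On GRCh37 it spans bases 110831731 to 110848288 of chromosome 5, minus strand. Its level was 2.05 FPKM in A375 Prop, with a 95% interval of 1.53 to 2.69 for counting error, and 19.4 FPKM in A375-VR Prop, with an interval of 17.6 to 21.3. A375-VR Prop was thus the higher, and the intervals did not overlap. The plain ratio was a fold of 9.44, with a 95% counting interval of 7.07 to 12.8. Intervals of this kind cover counting error only and say nothing of how far repeat cultures would differ. The interval rests on 52 and 453 recovered reads, the smallest whole numbers that give the deposited values. They imply a gene length of 1421 bases, which is the GENCODE exon length of 5684 bases divided by exactly 4. At the GENCODE length the reads would be 208 and 1812 and the interval 8.17 to 10.9. Among genes past the filter, STARD4 stood at percentile 17.9 of level in A375 Prop and at percentile 75.6 in A375-VR Prop. In such bulk RNA, a change in the share of cells that express a gene and a change in its RNA per cell cannot be told apart.

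On the log2(FPKM + 1) scale, which is used below for counts and understates the change of low genes, the STARD4 difference was 2.74. Of the 10761 genes past the filter, 12 had a larger difference, since STARD4 ranked 13. A difference of at least 1 is called 2-fold here. By that call 338 genes, 3.14%, were higher in A375-VR Prop and 66 genes, 0.613%, were lower. Higher genes thus made up 83.7% of the calls. The share was 73.0% after centring on the median ratio and 72.9% with a trimmed mean of log ratios. STARD4 was the 1 member of 5 called 2-fold higher, and 0 were called lower. Because the genes were chosen with these values known, nothing is read from that share.

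**Figure D1:**
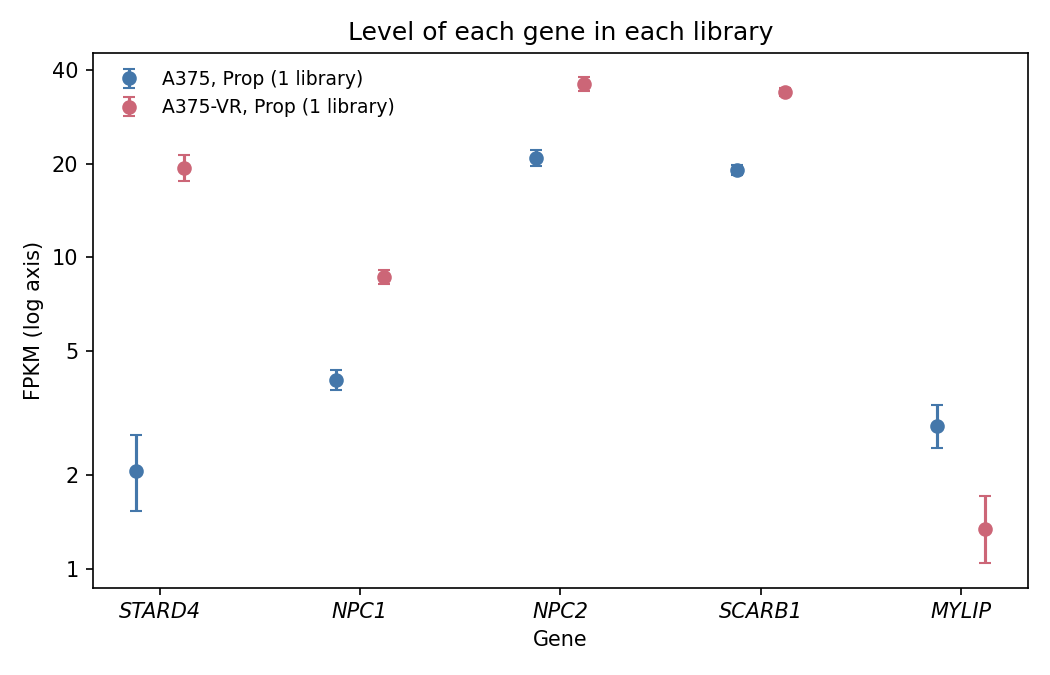
Level of each of the 5 genes in FPKM on a log axis, 1 point per library; bars are 95% exact Poisson intervals for counting error only. STARD4, NPC1, NPC2 and SCARB1 were higher in A375-VR Prop and MYLIP was lower there, at 1.34 against 2.87 FPKM.

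The pair of Niemann-Pick type C genes were both higher in A375-VR Prop, by smaller folds. NPC1 (Entrez 4864) spans bases 21086148 to 21166470 of chromosome 18, minus strand. It had 4.04 FPKM in A375 Prop and 8.67 in A375-VR Prop, from 727 and 1439 recovered reads. Its fold was 2.14, with an interval of 1.96 to 2.35, and its difference of 0.94 on the log2(FPKM + 1) scale was just under the 2-fold call. With a pseudocount of 0.1 the difference was 1.08 and passed it. NPC2 (Entrez 10577) spans bases 74942895 to 74960880 of chromosome 14, minus strand. It had 20.9 and 36.1 FPKM, from 1021 and 1630 recovered reads. The fold of NPC2 was 1.73, with an interval of 1.60 to 1.87, and its difference was 0.76. The counting intervals of the NPC1 and NPC2 folds did not overlap, and NPC1 had the higher fold. Per length, NPC2 was at 5.16 times the level of NPC1 in A375 Prop and at 4.16 times in A375-VR Prop, so the soluble carrier was the more abundant transcript in each.

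Both genes share exon bases with a neighbour on the opposite strand, and whether the authors' counting used strand is not given in the sources used here. NPC1 shares 6.38% of its exon bases with RMC1, which had 5.47 and 7.74 FPKM. NPC2 shares 3.99% with ISCA2, which had 7.06 and 6.82 FPKM. STARD4 shares 2.18% with its antisense gene STARD4-AS1, and SCARB1 7.52% with an unnamed long noncoding RNA, for which no values were used here. The part of such shared bases in the members' values was not tested.

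SCARB1 (Entrez 949) spans bases 125261402 to 125367214 of chromosome 12, minus strand. It had 19.1 FPKM in A375 Prop and 33.9 in A375-VR Prop, from 2627 and 4312 recovered reads. The HDL receptor was thus higher in A375-VR Prop, at a fold of 1.78 with an interval of 1.69 to 1.87. This interval overlapped that of NPC2. On the log2(FPKM + 1) scale the SCARB1 difference was 0.80. The ratio of SCARB1 to NPC2 was 0.914 in A375 Prop and 0.939 in A375-VR Prop, so this pair kept nearly the same proportion. Of all genes past the filter, 5.82% had a larger difference than SCARB1, 6.58% a larger one than NPC2 and 3.71% a larger one than NPC1.

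MYLIP was the member that went the other way. Its gene (Entrez 29116) spans bases 16129317 to 16148479 of chromosome 6, plus strand. The ligase gene had 2.87 FPKM in A375 Prop, with an interval of 2.44 to 3.36, and 1.34 in A375-VR Prop, with an interval of 1.04 to 1.71. A375 Prop was the higher, and the intervals did not overlap. The fold was 0.468, with an interval of 0.346 to 0.628, from 155 and 67 recovered reads. At this low level the pseudocount weighs on the difference, which was -0.72 and short of the 2-fold call, against -1.04 with a pseudocount of 0.1. Of all genes past the filter, 2.05% had a lower difference.

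In order of level, A375 Prop ran from STARD4 through MYLIP, NPC1 and SCARB1 to NPC2. There the intervals of STARD4 and MYLIP overlapped, as did those of SCARB1 and NPC2, at 18.3 to 19.8 and 19.6 to 22.2 FPKM. At the 208 reads of the GENCODE length the interval of STARD4 would be 1.78 to 2.35 FPKM and would not overlap that of MYLIP. Other neighbours in this order did not overlap. In A375-VR Prop the order was MYLIP, NPC1, STARD4, SCARB1 and NPC2, with overlapping intervals for SCARB1 and NPC2 only. STARD4 passed both MYLIP and NPC1 between the libraries: it stood at 0.716 times the level of MYLIP in A375 Prop and at 14.4 times in A375-VR Prop. Against NPC1 it went from 0.508 to 2.24 times. Compared per length, these ratios depend on the gene lengths the authors used. The recovered length of SCARB1, 7741 bases, was 0.52 of its GENCODE exon length, while those of MYLIP, NPC1 and NPC2 were between 0.987 and 1.06 of theirs. Folds between the libraries do not depend on length.

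**Figure D2:**
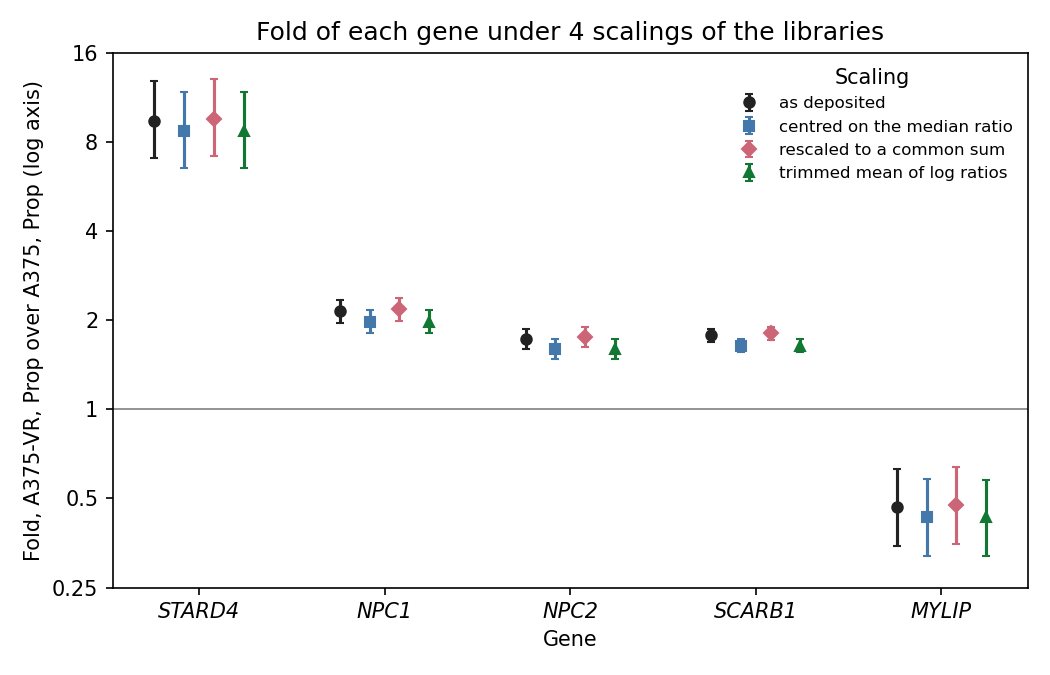
Fold of each gene, A375-VR Prop over A375 Prop, on a log axis under 4 scalings of the libraries, with 95% Clopper-Pearson intervals for counting error only. STARD4 lay between 8.71 and 9.59, NPC1 between 1.98 and 2.18, and MYLIP between 0.432 and 0.476, so each gene kept its side of 1.

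Scaling moved the folds little. With the trimmed mean of log ratios, STARD4 had a fold of 8.71, NPC1 of 1.98, SCARB1 of 1.64, NPC2 of 1.60 and MYLIP of 0.432. All 5 intervals stayed on the same side of 1 under the 4 scalings tried. The median difference of all genes past the filter was 0.10, and 60.3% of genes lay above 0, so small differences among the related genes below are to be read against that shift.

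**Figure D3:**
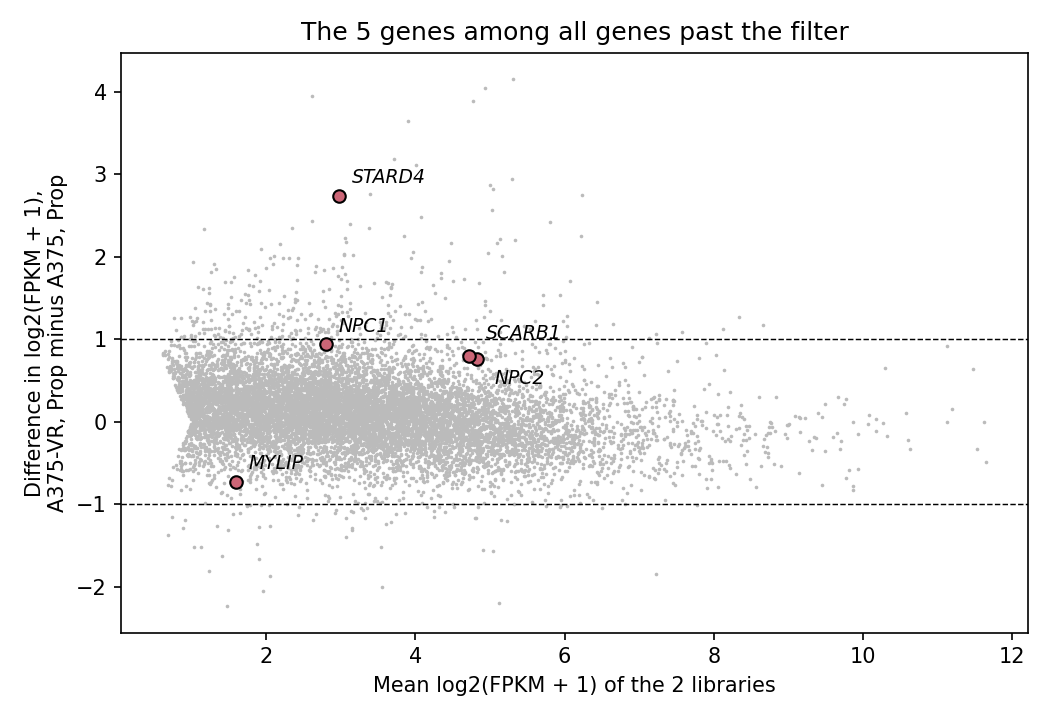
Difference in log2(FPKM + 1), A375-VR Prop minus A375 Prop, against the mean level for the 10761 genes past the filter in grey, with the 5 genes in red; dashed lines mark the 2-fold call. STARD4 lies at 2.74 near the upper edge, NPC1, SCARB1 and NPC2 lie between 0.76 and 0.94, and MYLIP lies at -0.72.

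The gene nearest to each member in the plane of the levels in the 2 libraries was found over all genes past the filter. With 2 libraries such likeness means only similar levels in each. STARD4 was nearest to AKR1C2, which had 2.79 and 19.0 FPKM, at a distance of 0.313 on the log2 scale. NPC1 was nearest to REEP2 (3.90 and 8.72 FPKM, distance 0.0423) and NPC2 to MINPP1 (20.7 and 35.0 FPKM, distance 0.0452). SCARB1 was nearest to IGF2BP2 at a distance of 0.120 and MYLIP to FAM167A at 0.0521. The distance of STARD4 was the longest of the 5.

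Other lipoprotein receptors and their helpers were mostly higher in A375-VR Prop, and none by 2-fold. Of 14 listed, 7 passed the filter and 6 of these had a difference above 0, with a median of 0.39. Over all genes past the filter 60.3% were above 0, a share to set beside this and the later counts above 0. LRP8, an endocytic member of the lipoprotein receptor family, had 10.1 and 19.3 FPKM, a fold of 1.91 with an interval of 1.80 to 2.02. SORT1, a sorting receptor of the Golgi and endosomes, had 4.49 and 7.80 FPKM. LRP1, a large endocytic receptor, had 3.28 and 5.70 FPKM. The scavenger receptor CD36, of the same family as SCARB1, was listed at 0 in both libraries. Genes that ubiquitinate, spare or recycle endocytosed receptors had a median near that of all genes: of 18, 17 passed the filter, 12 were above 0 and none was 2-fold apart, with a median of 0.15 against 0.10 for all genes. WASHC4 and WASHC5, of the WASH complex on endosomes, had folds of 1.36 and 1.26, and SNX17, a receptor recycling adaptor, had a fold of 1.298. The UBE2D conjugating enzymes, the family with which MYLIP works, did not share a fold: UBE2D1 had 0.967, UBE2D2 0.820, UBE2D3 0.936 and UBE2D4 1.11, and the intervals of UBE2D1 and UBE2D4 held 1.

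Partners of HDL and selective uptake went both ways. Of 10 listed, 5 passed the filter, 4 were above 0 and 1 was called 2-fold lower. The median was 0.17. The lower gene was CAV1, the main protein of caveolae, with 281 and 77.7 FPKM and a difference of -1.84. PLTP, the phospholipid transfer protein, had 25.0 and 38.7 FPKM. The scaffold SLC9A3R1 had 22.2 and 25.5 FPKM, a difference of 0.19. PDZK1, the adaptor that holds SCARB1 at the surface of liver cells, was under the filter at 0.657 and 0.687 FPKM.

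Genes of lysosomal cholesterol release, the compartment of NPC1 and NPC2, had a median of 0.40. Of 15 listed, 13 passed the filter, 12 of these were above 0, and none was 2-fold apart on the log2(FPKM + 1) scale. After centring on the median ratio, 10 of the 13 were above 0. With a pseudocount of 0.1, or after rescaling to a common sum, 1 was at least 2-fold higher. LIPA, the acid lipase that frees cholesterol from its esters, had 11.6 and 23.9 FPKM, a fold of 2.06 with an interval of 1.91 to 2.23. SMPD1, acid sphingomyelinase, had 6.43 and 12.8 FPKM, a fold of 1.99. SCARB2, a lysosomal membrane protein and relative of SCARB1, had 3.64 and 6.17 FPKM. LIPA, SMPD1 and NPC1 had differences between 0.89 and 0.98. LAMP1, an abundant lysosomal membrane protein, had 53.5 and 56.3 FPKM, a difference of 0.07 and below the median of all genes.

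Another list, called carriers below, held sterol carriers other than STARD4 together with other lipid carriers and contact-site proteins. Of its 19 genes, 15 passed the filter, 14 were above 0 and 1 was at least 2-fold higher. With a pseudocount of 0.1 or after rescaling 2 were, and the added gene was COL4A3BP. The median of the list was 0.22. The gene past the call in each setting was GRAMD1B, an Aster protein that carries sterol from the plasma membrane to the endoplasmic reticulum, with 3.41 and 13.6 FPKM and a fold of 3.99, interval 3.71 to 4.30. Its relative GRAMD1A had 10.03 and 11.1 FPKM. COL4A3BP, the ceramide transfer protein, had 2.35 and 5.31 FPKM, and OSBPL10, an oxysterol-binding protein relative, 4.41 and 8.80. STARD5, the START protein of the STARD4 subfamily, was at 0.115 and 0.0576 FPKM and STARD6 was listed at 0 in A375 Prop and at 0.294 in the other, so STARD4 was the subfamily member with a level past the filter.

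Genes of esterification, efflux and LXR had a median of 0.20. Of 14 listed, 9 passed the filter, 7 were above 0 and 1 was at least 2-fold higher. That gene was SMPDL3A, a secreted phosphodiesterase and LXR target, with 1.31 and 4.01 FPKM, from 55 and 155 recovered reads. NR1H2 and NR1H3, which encode the LXR receptors, had folds of 1.35 and 1.41. The LXR targets ABCA1 and ABCG1, exporters of cholesterol, were under the filter: ABCA1 had 0.178 and 0.172 FPKM, and ABCG1 had 0.0917 FPKM in A375 Prop and was listed at 0 in A375-VR Prop. The LXR target LPCAT3, which passed the filter, had a fold of 0.970. MYLIP, with a fold of 0.468, thus had a lower fold than LPCAT3 and SMPDL3A. The difference between them was not tested.

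For comparison, all 16 listed genes of cholesterol synthesis and its control were at least 2-fold higher in A375-VR Prop, with a median of 2.45. Of all genes past the filter, 3.14% were called 2-fold higher. The list is a selection, chosen with earlier results of these data known, so nothing is read from that count. The differences of the 16 ran from 1.12 for FDPS, farnesyl diphosphate synthase, to 4.15 for HMGCS1, the synthase of HMG-CoA. The STARD4 difference of 2.74 lay inside that range, above 10 of the 16. The differences of NPC1, NPC2 and SCARB1, at 0.76 to 0.94, all lay under the lowest of the 16. All of these values come from the same pair of libraries, so they are set side by side and not as separate support.

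**Figure D4:**
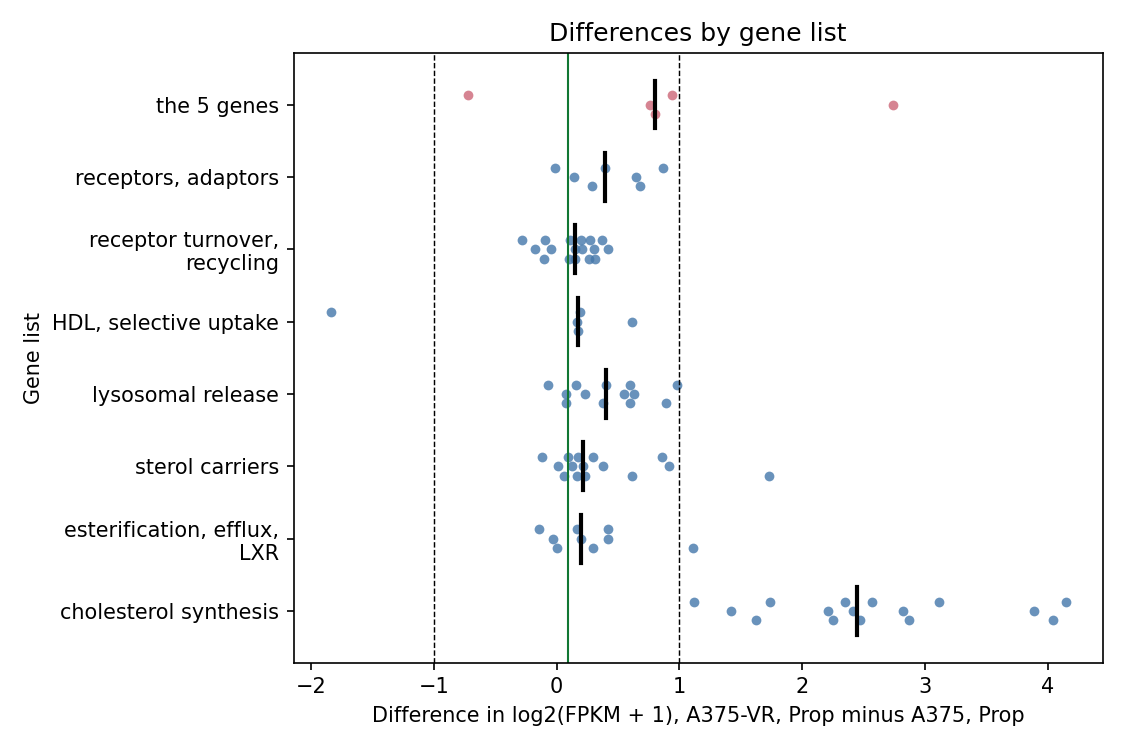
Difference in log2(FPKM + 1), A375-VR Prop minus A375 Prop, for the 5 genes and for each gene past the filter in 7 related lists; black bars are list medians, dashed lines mark the 2-fold call and the green line is the median of all genes, 0.10. The synthesis genes start at 1.12, and of the 5 genes STARD4 alone lies among them.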

How the data were processed

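Messenger RNA was measured in 2 libraries, and groups were taken from the sample titles. A stranded TruSeq kit was used and 150 bp pairs were mapped by TopHat 1.3.3 on GRCh37, per the design text of the series. The deposited values are FPKM, computed by the authors per the file names; which tool counted them, on which annotation and whether by strand is not given in the sources used here. Differences are log2(FPKM + 1), A375-VR, Prop minus A375, Prop, over genes with FPKM of at least 1 in either library, and folds are plain ratios of FPKM. With 1 library per group no test was possible. The members and the gene lists were chosen with earlier results of these data known.

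Depth was recovered from the files. The commonest ratio of FPKM among low genes, shared by 274 genes, gave the ratio of the totals. For each gene a fraction of whole numbers was then sought, with rising limits on the denominator, that gives the ratio of its reads. It was accepted within a relative tolerance of 1e-06. Such a fraction was found for 100% of 13990 genes above 0 in both libraries, which the large denominators allowed largely build in. Reads are the smallest multiples of its numbers that also give a whole gene length. The common factor of the totals was the one of 12 tried with most gene lengths equal to GENCODE release 44 exon lengths on GRCh37, 16.0% against 10.8% for the next. Intervals are 95% Clopper-Pearson for folds and exact Poisson for levels, on these reads; true reads can be multiples of them.

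The text names the 5 members, the genes of each related list past 2-fold and its 3 largest differences, and the gene nearest to each member, but of the synthesis genes only the ends of their range. CD36, PDZK1, LAMP1, GPR155, GRAMD1A, STARD5, STARD6, ABCA1, ABCG1, LPCAT3, the UBE2D genes and the overlapping genes were named after their values were seen. Alternatives were a pseudocount of 0.1, no filter, a filter of FPKM 5, centring on the median ratio, a trimmed mean of log ratios (30% of ratios and 5% of levels from each side) and rescaling to a sum of 1000000. The ratio of the totals, the fractions of reads and the 2-fold call were tried on simulated data, with outcomes not given here. Fold intervals were tried there only on the numbers of each fraction, before any multiple was taken. The common factor of the totals, the gene lengths and the multiples were not tried. Python 3.11.15, pandas 2.3.3 and scipy 1.17.1 were used.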

Additional observations from a re-analysis of the deposited data

How the results depend on the processing

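The direction of all 7 list medians was the same under the alternatives run. That of all 5 members was the same under those that change the pseudocount or the scaling. Member differences were not recomputed under other filters, which leave them unchanged, but MYLIP, at 2.87 and 1.34 FPKM, drops out at a filter of FPKM 5. Of 80 values under 6 alternatives, 62 stayed within their margin, 18 moved and 0 reversed. The margin was counting error for members and a set ratio for counts. For list medians it was the median counting interval of single genes, which is not the error of a median. Medians inside it still shifted. Centring on the median ratio took the carriers median from 0.22 to 0.12 and the esterification, efflux and LXR median from 0.20 to 0.10. It took the HDL median from 0.17 to 0.08 and the turnover median from 0.15 to 0.06. The lysosomal and receptor medians fell to 0.29. With a pseudocount of 0.1, 689 genes were at least 2-fold higher and 140 lower, NPC1 reached 1.08 so that 2 members were 2-fold higher, and the synthesis median was 2.62. After rescaling to a common sum these were 624, 104, 1.08, 2 and 2.60. In both settings the pseudocount is smaller beside the values. Centring on the median ratio gave SCARB1 a difference of 0.69, 101 genes 2-fold lower and a synthesis median of 2.33, and the trimmed mean of log ratios gave 0.69, 101 and 2.33; both shift every ratio by about the same amount, 0.11 and 0.12 on the log2 scale. Without the filter the receptor median was 0.13 and the HDL median 0.0197, since genes near 0 FPKM enter. The turnover median was then 0.18, above that of the receptors, while with the filter it was below, at 0.15 against 0.39. With a pseudocount of 0.1 and after rescaling, the lysosomal list went from 0 to 1 gene 2-fold higher and the carriers from 1 to 2. At a filter of FPKM 5 the esterification, efflux and LXR list went from 1 to 0, since SMPDL3A drops out. Centring on the median ratio lowered the counts above 0 to 10 of 13 lysosomal genes and 12 of 15 carriers. Those counts fell to 11 of 17 for turnover and to 6 of 9 for esterification, efflux and LXR. The receptor and HDL counts stayed at 6 of 7 and 4 of 5. No paired analysis was possible because each group has 1 library. Leaving out a replicate was not possible for the same reason. Depth limits MYLIP and STARD4 most, with 67 and 52 recovered reads in the lower library, or 208 for STARD4 at the GENCODE length.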
